A study of Mus musculus with 12 samples.

Results

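The 5 imprinted genes described here, Meg3, Grb10, Igf2r, Zrsr1 and Slc38a4, were taken by gene name from a table of 13581 mouse genes, and all 5 were found and passed the filter on low values. The mark measured was 5-hydroxymethylcytosine (5hmC), which Tet enzymes produce by oxidising 5-methylcytosine, captured by hMe-Seal: T4 beta-glucosyltransferase attached an azide-glucose to 5hmC, the azide was coupled to biotin, and the tagged DNA fragments were pulled down on streptavidin and sequenced. Values are FPKM, reads scaled for the length of the region and for the depth of the library, for a gene body and for a promoter window of each gene. The 12 libraries came from heart and liver of C57BL6/j mice, taken as whole tissue at embryonic day 14 (E14 heart and E14 liver, 1 library each), neonatal day 1 to 2 (P1 heart and P1 liver, 2 each) and 8 weeks (W8 heart and W8 liver, 2 each), and from EB5, an embryonic stem cell line of 129/Ola background grown with LIF (ESC, 2 libraries). The sample labels used here name no mutation and no drug treatment for any group, and whether the EB5 line is unmodified is not stated. The ESC and P1 libraries were read as 75 bp pairs and the E14 and W8 libraries as 50 bp single ends. Read format therefore cannot be told apart from age between P1 and either E14 or W8, nor from cell source between ESC and E14 or W8 tissue. Strain cannot be told apart from cell source between ESC and any tissue. The median gene-body FPKM of a library was 0.739 to 0.969 in the 75 bp format and 0.522 to 0.779 in the 50 bp format. Whether the replicates are separate animals or cultures is not in the labels, and p values measure only the spread between these libraries, which may be technical. In whole tissue, a change in the mark within cells and a change in the make-up of cell types cannot be told apart.

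Imprinted genes are expressed mainly from one parental copy, which is usually set by DNA methylation that an imprinting control region received in the egg or the sperm. Pull-down reads here carry no parental label, so a level sums both copies. Igf2r, the receptor that carries Igf2 to the lysosome, and Grb10, an adaptor that restrains insulin and growth factor receptors, are expressed from the maternal copy in most mouse tissues and limit growth. Meg3 is a maternally expressed long noncoding RNA of the Dlk1-Dio3 domain. Zrsr1, a retrogene inside Commd1 that encodes a protein related to the splicing factor U2af1, and Slc38a4, an amino acid transporter of liver and placenta, are expressed from the paternal copy. In mouse embryos the imprint of Slc38a4 has been tied to histone methylation of the egg rather than to DNA methylation.

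The promoters are shown first, because hydroxymethylation occurs largely at CpG sites and the 5 genes differ widely in how many they hold around the start site. Each sequence runs 5′ to 3′ from 250 bases before to 50 bases after the RefSeq start in GRCm38.p6, with every CpG in capitals.
Meg3: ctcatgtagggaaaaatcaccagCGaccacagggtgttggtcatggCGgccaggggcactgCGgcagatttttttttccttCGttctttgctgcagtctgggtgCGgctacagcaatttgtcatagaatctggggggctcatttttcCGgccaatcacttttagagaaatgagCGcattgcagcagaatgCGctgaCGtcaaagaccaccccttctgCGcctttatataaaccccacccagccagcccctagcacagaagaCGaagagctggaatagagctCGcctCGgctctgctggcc
Grb10: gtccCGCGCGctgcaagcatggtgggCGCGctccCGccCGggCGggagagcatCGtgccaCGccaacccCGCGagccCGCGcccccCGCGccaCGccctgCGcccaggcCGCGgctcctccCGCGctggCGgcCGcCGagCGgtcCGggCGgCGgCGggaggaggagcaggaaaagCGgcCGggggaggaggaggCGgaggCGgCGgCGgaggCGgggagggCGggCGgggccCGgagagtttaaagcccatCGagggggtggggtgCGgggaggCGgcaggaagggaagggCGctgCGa
Igf2r: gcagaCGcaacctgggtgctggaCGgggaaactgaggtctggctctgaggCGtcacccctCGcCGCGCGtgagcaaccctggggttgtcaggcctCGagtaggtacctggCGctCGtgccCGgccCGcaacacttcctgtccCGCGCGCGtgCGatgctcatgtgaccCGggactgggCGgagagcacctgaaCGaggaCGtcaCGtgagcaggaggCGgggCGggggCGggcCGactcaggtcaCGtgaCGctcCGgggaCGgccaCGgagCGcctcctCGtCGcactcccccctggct
Zrsr1: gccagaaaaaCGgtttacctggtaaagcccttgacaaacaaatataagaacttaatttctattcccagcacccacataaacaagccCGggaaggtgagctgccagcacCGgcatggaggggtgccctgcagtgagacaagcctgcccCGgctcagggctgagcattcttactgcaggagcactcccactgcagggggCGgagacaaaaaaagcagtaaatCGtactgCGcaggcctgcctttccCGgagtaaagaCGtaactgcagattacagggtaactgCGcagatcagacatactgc
Slc38a4: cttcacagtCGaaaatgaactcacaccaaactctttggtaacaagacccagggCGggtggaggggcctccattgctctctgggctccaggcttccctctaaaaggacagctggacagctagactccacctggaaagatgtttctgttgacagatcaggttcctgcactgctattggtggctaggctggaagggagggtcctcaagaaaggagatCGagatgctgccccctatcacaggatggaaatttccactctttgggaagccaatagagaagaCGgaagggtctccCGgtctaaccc
The Grb10 promoter (minus strand of chromosome 11, 12037371 to 12037670) held 45 CpGs, more than 98.2% of the 32851 promoters of the RefSeq table, whose median was 7. Igf2r (minus strand of chromosome 17, 12769657 to 12769956) held 34 CpGs, at the 92.7th percentile. Meg3 (plus strand of chromosome 12, 109540746 to 109541045) held 13, Zrsr1 (plus strand of chromosome 11, 22971755 to 22972054) held 10, and Slc38a4 (minus strand of chromosome 15, 97055907 to 97056206) held 5, below the median of all promoters. The hexamer TGCCGC, the core that the imprint-protecting factor ZFP57 binds when methylated, was searched on both strands. It occurred 1 time each in Meg3 and Grb10 and was not among the letters of the other 3 windows, while 11.6% of all promoters held it. The RefSeq start of Zrsr1 gives a gene span 1208 bp longer than the table of this series, so that sequence may begin upstream of the start used there.

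In the mm9 coordinates of the deposited table, each promoter window is 4000 bp and the gene body begins where that window ends. Adding 2000 bp to the body gave the RefSeq gene length within 100 bp for 52.1% of 12378 matched genes, against 0.194% with nothing added, so the window spans about 2000 bp on either side of the start. The Meg3 body (identifier NR_003633, plus strand) ran from 110781215 to 110809931, 28717 bp. The Grb10 body (NM_010345, minus strand) ran from 11830511 to 11935404, 104894 bp, and the Igf2r body (NM_010515, minus strand) from 12875272 to 12960530, 85259 bp. The Slc38a4 body (NM_027052, minus strand) ran from 96825254 to 96884387, 59134 bp. The Zrsr1 body (NM_011663, plus strand) ran from 22875215 to 22876498 and measured only 1284 bp. Each body covers exons and introns together beyond the first 2000 bp of the gene. Pull-down reads carry no transcript strand, so regions that share DNA share reads. Airn, the paternally expressed antisense RNA that silences Igf2r, overlapped 24354 bp of the Igf2r body, 28.6% of it, and the whole Igf2r promoter window. The Zrsr1 body and promoter window lay wholly inside the body of Commd1.

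Gene-body reads per library ranged from 142778 to 5761636. The lowest was W8 heart replicate 2, in which a gene body had a median of 5.04 reads and 46.1% of promoter windows had none. The labelled tissues were checked on marker genes: summed body FPKM over 9 of 10 cardiomyocyte genes was 15.4 to 31.6 in the heart libraries and 5.34 to 7.41 in the liver libraries. Over 8 of 10 hepatocyte genes the sum was 3.39 to 8.30 in W8 heart against 13.9 to 14.6 in W8 liver; at E14 the hepatocyte sum was 2.67 in heart and 4.74 in liver. Over 6 of 10 pluripotency genes the sum was 5.89 to 6.69 in P1 heart, 3.33 to 4.83 in P1 liver and 6.52 to 6.83 in ESC, so it barely set ESC apart from P1 heart.

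Grb10 and Igf2r carried more gene-body 5hmC in newborn heart and in newborn liver than in ES cells. Meg3 was lower in newborn heart than in newborn liver, and its level in liver was lower at 8 weeks than at birth and lower at 8 weeks than at E14. Slc38a4 was lower in 8-week heart than in 8-week liver and, in liver, higher at 8 weeks than at E14. Zrsr1 had no gene-body read in either ESC library and 2 to 6 reads in each P1 library. Differences are log2 of FPKM + 0.0746 from a limma fit of all 12 libraries, tested for 13413 genes, with a call at a Benjamini-Hochberg adjusted p under 0.05 within each of 9 gene-body comparisons and 4 promoter comparisons. Members called in gene bodies, beside the percentage of all genes called, numbered 1 of 5 for P1 heart against P1 liver (2.28% of all genes), 1 of 5 for W8 heart against W8 liver (30.9%), 3 of 5 for P1 heart against ESC (12.6%) and 3 of 5 for P1 liver against ESC (15.5%). By age, 2 of 5 were called for W8 liver against P1 liver (9.89%) and 2 of 5 for W8 liver against E14 liver (20.6%). No member was called for W8 heart against P1 heart (0.0149%, 2 genes), nor for the change of the heart-liver difference between P1 and W8 (0.0149%, 2 genes). W8 heart against E14 heart gave no call in limma for any gene (0%), although 1628 genes had an unadjusted p under 0.05. The comparisons with ESC share the ESC libraries, and the comparisons in liver share libraries as well, so these counts are not independent. Each call was lost in at least 2 of the 10 fits that left out 1 library, a loss of 1 residual degree of freedom of 5 as well as of data, and the libraries are named with each gene.

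**Figure D1:**
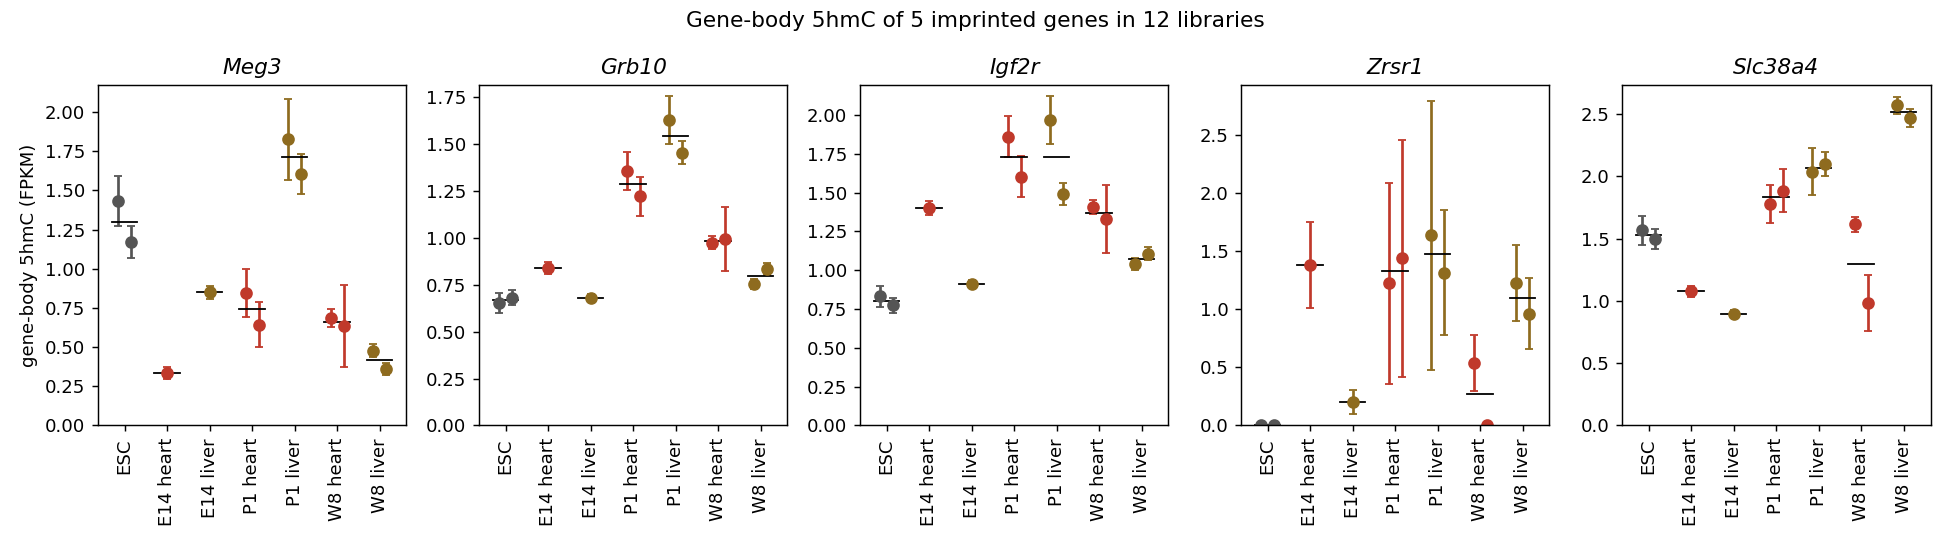
Gene-body 5hmC (y axis, FPKM) of the 5 genes in each of the 12 libraries (points), with the group mean as a black line and bars of 1 counting error (the square root of the reads). Meg3 peaked in the P1 liver libraries at 1.60 and 1.83 FPKM and Slc38a4 in the W8 liver libraries at 2.47 and 2.57, while the bars of Zrsr1 spanned much of its range.

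Igf2r had gene-body FPKM of 1.86 and 1.60 in the P1 heart libraries, 1.97 and 1.49 in the P1 liver libraries, and 0.832 and 0.775 in ESC. Both tissues lay above both ESC libraries, and heart and liver overlapped each other at birth. The difference from ESC was 1.04 ± 0.17 (log2, SE) for P1 heart (adjusted p = 0.0177) and 1.03 ± 0.17 for P1 liver (adjusted p = 0.0140). The heart call was lost without either ESC library, either P1 heart library or either W8 liver library (adjusted p 0.0566 to 0.119), and the liver call without either ESC library or P1 liver replicate 1 (0.0857 to 0.0913). The log2 differences over all such fits were 0.93 to 1.14 in heart and 0.84 to 1.22 in liver.

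At E14 the Igf2r body stood at 1.40 FPKM in heart and 0.912 in liver. At W8 it had 1.41 and 1.33 in heart against 1.04 and 1.11 in liver. Heart lay above liver at E14 and at W8 but not at P1. The W8 heart minus W8 liver difference was 0.33 ± 0.17, with an adjusted p of 0.175, while all genes had a median of -0.33. After centring each library on its own median it was 0.65 with an adjusted p of 0.0185, so that this call depends on the scaling. W8 liver against P1 liver gave -0.64 ± 0.17 (adjusted p = 0.0604). In rank, the Igf2r body stood between the 85.0th and 94.5th percentile of its library in all 5 heart libraries, between the 65.5th and 88.9th in the 5 liver libraries and at the 43.8th and 44.9th in ESC. From low to high mean the groups ran ESC, E14 liver, W8 liver, W8 heart, E14 heart, P1 heart and P1 liver. The values of W8 heart and E14 heart, and of P1 heart and P1 liver, did not separate.

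Airn, which shares DNA with Igf2r, is paternally expressed and had body FPKM of 1.38 and 1.60 (P1 heart), 1.41 and 1.80 (P1 liver) and 0.754 and 0.811 in ESC. It differed from ESC by 0.87 ± 0.16 in P1 heart (adjusted p = 0.0224) and by 0.96 ± 0.16 in P1 liver (adjusted p = 0.0140), and W8 liver was below P1 liver by -0.76 ± 0.16 (adjusted p = 0.0313).

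Grb10 had 1.36 and 1.22 FPKM for P1 heart, 1.63 and 1.45 in P1 liver, and 0.652 and 0.681 in ESC, each value resting on 138 to 543 reads. The P1 libraries were all above the ESC pair. The difference from ESC was 0.88 ± 0.14 in P1 heart (adjusted p = 0.0171) and 1.12 ± 0.14 in P1 liver (adjusted p = 0.00887). The heart call was lost without either ESC, either P1 heart or either W8 liver library (adjusted p 0.0564 to 0.122), and the liver call without either ESC library or P1 liver replicate 1 (0.0604 to 0.0719). Over all fits with 1 library left out the log2 differences were 0.81 to 0.95 in heart and 1.05 to 1.20 in liver.

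With age, Grb10 in liver had 0.680 FPKM at E14, 1.63 and 1.45 at P1, and 0.753 and 0.835 at W8. The P1 values stood above those of both other ages. P1 is also the only age read as 75 bp pairs, so a peak at P1, in liver or heart, cannot be told apart from read format. W8 liver was below P1 liver by -0.90 ± 0.14 (adjusted p = 0.0141), a call lost without either P1 liver or either W8 liver library (adjusted p 0.0529 to 0.138). W8 liver and E14 liver, which share the read format, differed by 0.20 ± 0.17 (adjusted p = 0.422), against a median of 0.47 over all genes, and after median centring by -0.31. In heart the values were 0.838 at E14, 1.36 and 1.22 at P1 and 0.975 and 0.994 at W8, in the same order as in liver. W8 heart against P1 heart gave -0.36 ± 0.14 (adjusted p = 0.171), close to the median of -0.30 over all genes. W8 heart minus W8 liver was 0.29 ± 0.14 (adjusted p = 0.147), and after median centring 0.61 (adjusted p = 0.0149). P1 heart minus P1 liver was -0.25 ± 0.14 (adjusted p = 0.305), near the median of -0.23 over all genes, and this difference was 0.0062 after centring. Only ESC and E14 liver were not separated among neighbouring groups in the order of levels, which ended with W8 heart, P1 heart and P1 liver.

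Grb10 and Igf2r had a Pearson r of 0.934 over the 12 libraries on centred log2 gene-body values, a description of libraries that share groups and read formats. Every other pair of members had an r between -0.417 and 0.610. Without W8 heart replicate 2 the Grb10 and Igf2r pair had 0.930, while Igf2r and Zrsr1 had 0.827 (0.610 with it) and Grb10 and Zrsr1 0.780 (0.566 with it). Among 11945 genes with a value above 0 in all libraries, those most like Grb10 were Airn (r = 0.975), Plekhm3 (0.959) and Tmem164 (0.943). Those most like Igf2r were Tgfbr3 (0.982), Plekhm3 (0.976) and the overlapping Airn (0.975), where 1% of genes reached 0.877. Without W8 heart replicate 2, of these only Airn for Grb10 and Tgfbr3 for Igf2r stayed among the first 3. Ddc, the gene of dopa decarboxylase 34464 bp from the Grb10 body, is paternally expressed in mouse heart. It had 1.43 and 1.51 FPKM for P1 heart, 1.28 and 1.92 in P1 liver and 1.10 and 1.16 in ESC, and differed from ESC by 0.36 ± 0.20 (adjusted p = 0.246) and 0.45 ± 0.20 (adjusted p = 0.160).

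Meg3 levels in liver differed between the ages, but P1 differs from E14 and W8 in read format as well. Its gene body had 0.849 FPKM at E14, 1.83 and 1.60 at P1, and 0.478 and 0.360 at W8. Both W8 values lay below every earlier liver value. In heart it had 0.335 at E14, 0.848 and 0.642 at P1, and 0.686 and 0.635 at W8, and the 2 later ages overlapped. W8 liver was below P1 liver by -1.87 ± 0.20 (adjusted p = 0.00912), at the 0.667th percentile of all genes, whose median was -0.23. This call was lost without P1 liver replicate 1 or either W8 liver library (adjusted p 0.0933 to 0.122, differences -2.04 to -1.69). W8 liver was also below E14 liver, by -0.92 ± 0.25 (adjusted p = 0.0427), where all genes had a median of 0.47; E14 liver has 1 library, assumed to vary like the rest. That call was kept in 4 of 10 fits and lost without any 1 of the ESC, P1 liver or W8 liver libraries (adjusted p 0.0676 to 0.187, differences -1.09 to -0.74), and after median centring the difference was -1.43 (adjusted p = 0.0166).

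At birth, Meg3 had 0.848 and 0.642 FPKM in heart against 1.83 and 1.60 in liver, from 31 and 20 reads against 50 and 164 reads. The P1 heart minus P1 liver difference was -1.14 ± 0.20 (adjusted p = 0.0461), at the 6.60th percentile of all genes. The call was kept only without either W8 heart library (adjusted p = 0.0152 for each) and lost without any 1 of the other 8 (0.0795 to 0.248, differences -1.32 to -0.95). It was also lost after median centring, at -0.88 (adjusted p = 0.0564), with a pseudocount 10 times smaller, at -1.21 (0.0541), with the replicate number as a block (0.0653) and in a fit of the compared groups only (0.0990). At W8 the values were 0.686 and 0.635 in heart against 0.478 and 0.360 in liver, heart above liver, from 143 and 6 reads against 122 and 84. The difference there was 0.58 ± 0.20 (adjusted p = 0.0663), or 0.63 without the shallow W8 heart library (adjusted p = 0.0797), and 0.90 after median centring (adjusted p = 0.0129). The heart-liver difference at W8 exceeded that at P1 by 1.72 ± 0.29 (adjusted p = 0.0889), so the change of sign did not pass the test. P1 heart differed by -0.75 ± 0.20 (adjusted p = 0.0542) and P1 liver by 0.38 ± 0.20 (adjusted p = 0.243) from ESC, which had 1.43 and 1.17 FPKM. From low to high mean the groups ran E14 heart, W8 liver, W8 heart, P1 heart, E14 liver, ESC and P1 liver, and only W8 heart and P1 heart overlapped among neighbours.

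Within its own library the Meg3 body stood at the 19th percentile in E14 heart, at 42.2 and 52.4 in P1 heart and at 52.7 and 57.7 in W8 heart. In liver it stood at the 85.9th percentile at E14, at 82.8 and 84.4 at P1 and at 22.2 and 30.6 at W8. These ranks do not depend on the scaling between libraries and show heart below liver at E14 and P1 and above it at W8. Dlk1, the paternally expressed Notch-family ligand of the same domain, whose body lies 79669 bp from that of Meg3, had 0.400 FPKM at E14, 0.652 and 0.740 at P1 and 0.662 and 1.46 at W8 in heart. In liver it had 1.36 at E14, 1.72 and 2.10 at P1 and 0.377 and 0.384 at W8. It was lower in W8 liver than in P1 liver by -2.12 ± 0.32 (adjusted p = 0.0138) and than in E14 liver by -1.65 ± 0.39 (adjusted p = 0.0299). W8 heart was above W8 liver by 1.22 ± 0.32 (adjusted p = 0.0295), or by 0.69 without the shallow W8 heart library (adjusted p = 0.0228), and P1 heart stood at -1.36 ± 0.32 from P1 liver (adjusted p = 0.0698). The genes most like Meg3 were Myb (r = 0.953), Slamf6 (0.944) and Bzrap1 (0.937), of which only Bzrap1 stayed among the first 3 without W8 heart replicate 2.

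Marker lists of other cell types moved with the fall of Meg3 and Grb10 in liver, and their part in it was not tested. Summed body FPKM was 5.31 to 6.10 in W8 liver against 9.47 to 9.92 in P1 liver over 7 of 10 erythroid genes, 2.36 to 2.71 against 5.55 to 5.59 over 10 fibroblast genes, and 6.04 to 6.17 against 9.72 to 11.2 over 10 endothelial genes. It was 2.96 to 3.26 in W8 liver against 4.61 to 5.10 in P1 liver over 9 of 11 macrophage genes. Lists foreign to liver were lower in W8 liver as well. The sum was 2.60 to 3.00 against 3.33 to 4.83 over 6 of 10 pluripotency genes. Over 9 of 10 cardiomyocyte genes it was 5.34 to 5.76 against 6.19 to 7.41. Only the hepatocyte list ran the other way, at 13.9 to 14.6 against 11.1 to 12.9. All genes had a median log2 difference of -0.23 in this comparison, in which read format differs as well. At birth the erythroid sum was 6.41 to 8.34 in heart against 9.47 to 9.92 in liver. The same sum was 9.49 to 10.4 in ESC and 6.53 in E14 liver, so it did not set P1 liver apart from ESC. No marker was at 0 in W8 liver, and 1, Tcf21 of the fibroblast list, was at 0 in both libraries of P1 liver.

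**Figure D2:**
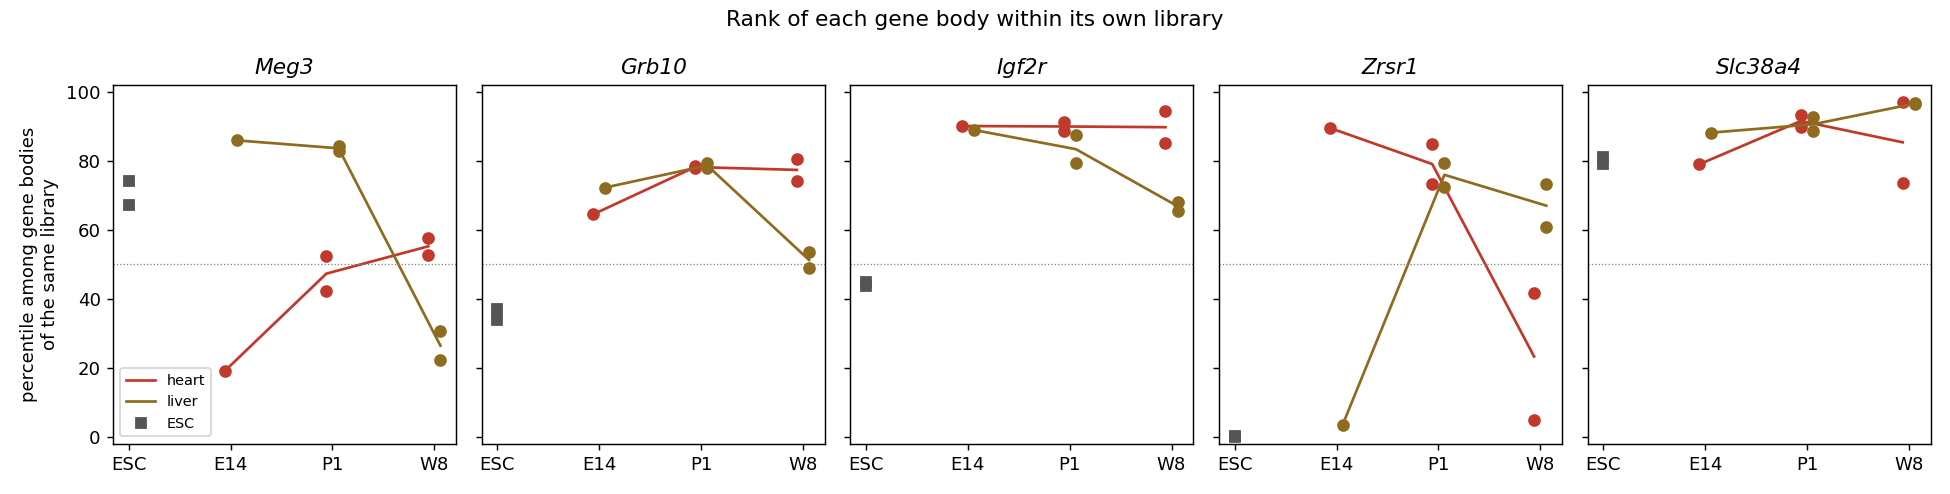
Percentile of each gene body among all gene bodies of its own library (y axis) by age (x axis), for heart (red) and liver (brown) libraries as points with lines through the group means, and ESC as squares. Meg3 in liver stood at 82.8 to 85.9 at E14 and P1 and at 22.2 and 30.6 at W8, while Slc38a4 stayed above the dotted median in all 12 libraries.

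Slc38a4 was the member with the most steadily high gene body, above its library's median in 12 of 12 libraries and at the 73.6th to 97.2nd percentile. Its values were 1.62 and 0.982 FPKM in W8 heart against 2.57 and 2.47 in W8 liver. Both heart libraries lay below both liver libraries, and the lower heart value, from 19 reads, belongs to the shallow library. The difference was -0.96 ± 0.22 (adjusted p = 0.0211), and -0.62 without W8 heart replicate 2 (adjusted p = 0.0155), which leaves W8 heart with 1 library assumed to vary like the rest. The call was lost without W8 liver replicate 1 (adjusted p = 0.117) or 2 (0.113), at -0.93 and -0.99. In a fit of the compared groups only its adjusted p was 0.143. After median centring it was -0.64 (adjusted p = 0.0778), since all genes were lower in W8 heart by a median of -0.33. In percentile the adult libraries did not separate by tissue, with 97.2 and 73.6 in heart against 96.5 and 96.7 in liver.

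In liver, Slc38a4 had 0.894 FPKM at E14, 2.04 and 2.10 at P1, and 2.57 and 2.47 at W8, each age above the one before. Each of these steps also crosses a change of read format. Within its library the body stood at the 88.17th percentile at E14, at 88.55 and 92.63 at P1 and at 96.48 and 96.72 at W8. W8 liver exceeded E14 liver by 1.42 ± 0.27 (adjusted p = 0.0185), in libraries of the same read format. The call was lost without W8 liver replicate 1 or 2 (adjusted p = 0.105 and 0.104, at 1.39 and 1.45) and after median centring, where the difference was 0.91 (adjusted p = 0.0765). W8 liver minus P1 liver was 0.27 ± 0.22 (adjusted p = 0.506), while all genes had a median of -0.23. In heart the values were 1.08 at E14, 1.78 and 1.89 at P1, and 1.62 and 0.982 at W8. At birth the tissues were close, with 1.78 and 1.89 in heart against 2.04 and 2.10 in liver, a difference of -0.17 ± 0.22 (adjusted p = 0.670) that was 0.083 after median centring. Neither P1 heart (0.25 ± 0.22, adjusted p = 0.487) nor P1 liver (0.42 ± 0.22, adjusted p = 0.250) passed the test against ESC, which had 1.57 and 1.5 FPKM. From low to high mean the groups ran E14 liver, E14 heart, W8 heart, ESC, P1 heart, P1 liver and W8 liver, and the spread of W8 heart took in both of its neighbours.

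Slc38a2 and Slc38a1, related amino acid transporters whose bodies lie 297125 and 353910 bp from that of Slc38a4, are not in the list of imprinted genes used here. Slc38a2 had 2.38 and 2.89 FPKM in W8 heart against 3.98 and 4.24 in W8 liver, a difference of -0.63 ± 0.23 that did not pass the test (adjusted p = 0.0707). For Slc38a2, W8 liver exceeded E14 liver, at 1.56, by 1.36 ± 0.28 (adjusted p = 0.0210). Slc38a1 had 1.28 and 1.69 FPKM in W8 heart against 0.701 and 0.743 in W8 liver, higher in heart by 0.96 ± 0.17 (adjusted p = 0.00973), opposite in sign to Slc38a4. It was lower in W8 liver than in P1 liver, at 1.64 and 1.86, by -1.19 ± 0.17 (adjusted p = 0.0121). The genes most like Slc38a4 in pattern were Slc25a13 (r = 0.953), Upp2 (0.941) and 9530008L14Rik (0.930), of which only Slc25a13 stayed among the first 3 without W8 heart replicate 2.

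Zrsr1 had too few gene-body reads for its level to be fixed in most libraries. It had 2 and 2 reads in P1 heart (1.22 and 1.44 FPKM), 2 and 6 in P1 liver (1.63 and 1.31 FPKM) and 0 and 0 in ESC. The E14 libraries had 14 reads in heart (1.38 FPKM) and 4 in liver (0.202 FPKM). At W8 it had 5 and 0 reads in heart (0.535 and 0 FPKM) against 14 and 10 in liver (1.23 and 0.961 FPKM). Group means ran from ESC through E14 liver, W8 heart, W8 liver, P1 heart and E14 heart to P1 liver. Among neighbours, only the library values of ESC and E14 liver, and of W8 heart and W8 liver, did not overlap. The Poisson intervals from the pooled reads of each group did overlap in these pairs. They ran from 0 to 0.480 FPKM in ESC against 0.0547 to 0.514 in E14 liver. At W8 they ran from 0.167 to 1.20 in heart against 0.705 to 1.64 in liver. E14 liver, with 4 reads, is the deepest library, whereas the 0 of W8 heart replicate 2 came from a library in which 9.94% of all gene bodies had no read.

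From the pooled reads of each group, the Zrsr1 body level was 1.32 FPKM in P1 heart (95% Poisson interval 0.360 to 3.38, 4 reads) and 1.38 in P1 liver (0.596 to 2.72, 8 reads). In ESC, with 0 reads, the same 95% interval had an upper end of 0.480 FPKM, below the lower end in P1 liver but not in P1 heart. A lower limit, the 0.391 FPKM of 3 reads over the ESC group, was used for the ratios. Over this limit the pooled estimates stood at ratios of 3.38 in P1 heart and 3.53 in P1 liver, and the lower ends of their intervals at 0.921 and 1.53, so of this pair only P1 liver exceeded the ESC limit beyond its counting error. The limma fit called both comparisons, at 4.23 ± 0.83 (adjusted p = 0.0255) and 4.37 ± 0.83 (adjusted p = 0.0198), but the size was set by the pseudocount and became 7.48 and 7.63 with a pseudocount 10 times smaller. The heart call was lost without either ESC, either P1 heart or either W8 liver library (adjusted p 0.0638 to 0.145), and the liver call without either ESC, either P1 liver or either W8 liver library (0.0512 to 0.112).

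Elsewhere, Zrsr1 had a pooled body level of 1.38 FPKM in E14 heart (0.752 to 2.31) against 0.201 in E14 liver (0.0547 to 0.514), intervals that did not overlap in this pair of libraries. At W8 it was 0.514 in heart (0.167 to 1.20) against 1.10 in liver (0.705 to 1.64). The W8 heart minus W8 liver difference of -2.45 ± 0.83 had an adjusted p of 0.0618, and without the shallow library it was -0.93 (adjusted p = 0.0189). Without W8 heart replicate 1 it was -3.96 (adjusted p = 0.00025), so both its size and its call turned on single libraries. The promoter window of 4000 bp held more reads and a narrower range, with 1.45 FPKM in E14 heart (1.06 to 1.94, 46 reads) against 0.853 in E14 liver (0.639 to 1.12, 53 reads). It was 0.636 in P1 heart (6 reads), 0.942 in P1 liver (17 reads) and 0.418 in ESC (0.201 to 0.769, 10 reads). ESC therefore had reads around the start of Zrsr1 although none fell in its body. Commd1, which contains Zrsr1, had 0.666 and 0.875 FPKM for P1 heart, 1.23 and 1.35 in P1 liver and 0.798 and 0.802 in ESC, and no comparison with ESC passed the test (adjusted p = 0.884 and 0.106). The intervals cover counting error only, and reads without molecular identifiers are not independent molecules. With 9 of the 12 libraries above 0, Zrsr1 was ranked against genes on all values, and Arglu1 (r = 0.967), 4921524J17Rik (0.966) and Cep68 (0.964) were most like it, none of which stayed among the first 3 without W8 heart replicate 2.

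**Figure D3:**
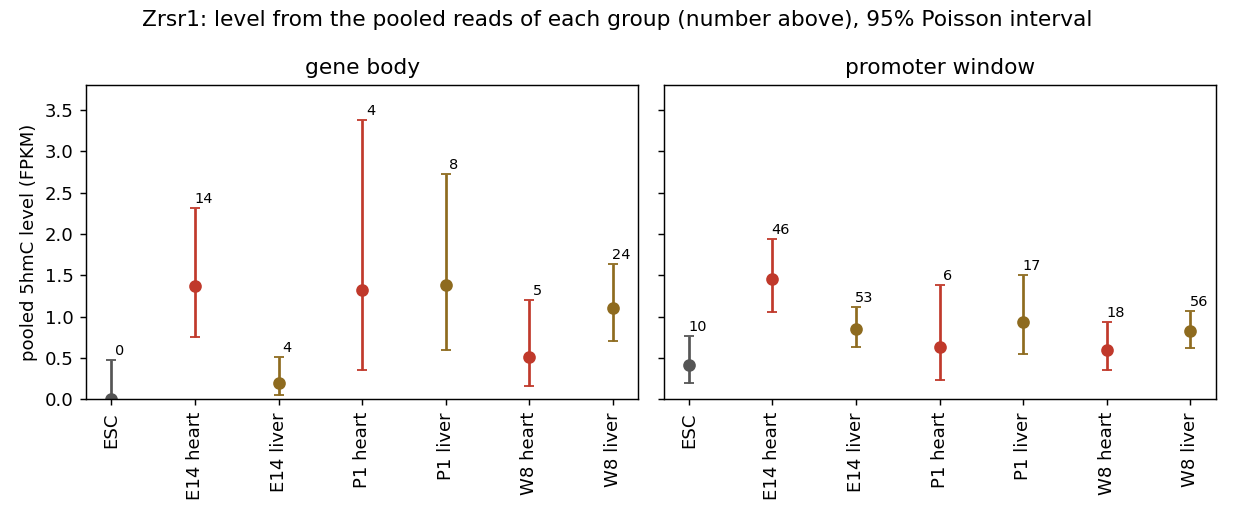
Zrsr1 5hmC (y axis, FPKM) from the pooled reads of each group, with 95% Poisson intervals and the number of reads above each point, for the gene body (left) and the promoter window (right). ESC had 0 body reads but 10 promoter reads, and E14 heart at 1.38 stood above E14 liver at 0.201 in the body.

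Promoter windows set Igf2r apart from the other members. Its window had 2.75 and 3.46 FPKM for P1 heart, 2.10 and 3.30 in P1 liver and 1.36 and 0.946 in ESC. At E14 it had 2.93 in heart and 1.38 in liver, and at W8 2.00 and 2.31 in heart against 2.25 and 1.45 in liver. The window exceeded the gene body in 12 of 12 libraries, by 1.07 to 2.21 times, which 2.48% of all genes did. In E14 heart it stood at the 99.9th percentile of all promoter windows and in ESC at the 68.0th and 80.9th. No member was called in promoter windows, where limma called 0.00746% of genes (1 gene) for P1 heart against P1 liver and for W8 heart against W8 liver, 0.0746% for P1 heart against ESC and 0.164% for P1 liver against ESC. At an unadjusted p under 0.05 these comparisons held 1242, 2279, 1664 and 2415 genes. The Igf2r window differed from ESC by 1.38 ± 0.37 in P1 heart (adjusted p = 0.157) and by 1.16 ± 0.37 in P1 liver (adjusted p = 0.142). Both passed without W8 heart replicate 1 (adjusted p = 0.0455 and 0.0457) and without replicate 2 (0.0428 and 0.0430). The 300 bases printed above for Igf2r are rich in CpG, while its window spans 4000 bp and is read together with Airn. Whether window levels go with CpG content was not tested.

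Slc38a4, whose promoter held 5 CpGs, had a window below its gene body in 12 of 12 libraries, as did 8.07% of all genes. The window had 0.981 and 1.38 FPKM for P1 heart, from 5 and 6 reads, against 0 and 0.281 in P1 liver, from 0 and 4 reads. Heart lay above liver in the window. The gene bodies differed by only -0.17, beside a median of -0.23 over all genes, and by 0.083 after median centring. The window difference of 2.95 ± 0.88 missed the threshold (adjusted p = 0.413). Its size was set by single libraries and by the pseudocount, at 1.81 without P1 liver replicate 1, 4.10 without P1 liver replicate 2 and 4.68 with a pseudocount 10 times smaller. At W8 the window had 0.343 and 0.756 FPKM in heart against 0.901 and 0.770 in liver, a difference of -0.63 ± 0.88 (adjusted p = 0.750). Grb10, with the most CpGs, had a window of 0.589 and 0.922 FPKM for P1 heart, 1.84 and 0.281 in P1 liver and 1.12 and 1.83 in ESC. The Grb10 window lay below its gene body in 8 of 12 libraries and above it in 4. Its gene body was above ESC at birth, whereas its window in P1 heart lay below both ESC libraries and in P1 liver on either side of them, at -0.89 ± 0.77 (adjusted p = 0.688) and -0.87 ± 0.77 (adjusted p = 0.570). Meg3 had a window of 0.589 and 0.461 FPKM for P1 heart, 1.05 and 0.843 in P1 liver and 1.74 and 0.883 in ESC, below its body in 11 of 12 libraries. Between P1 tissues it ran as the body did, at -0.77 ± 1.01 (adjusted p = 0.852). Promoter windows of the members rested on 0 to 93 reads per library, which limits these tests.

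**Figure D4:**
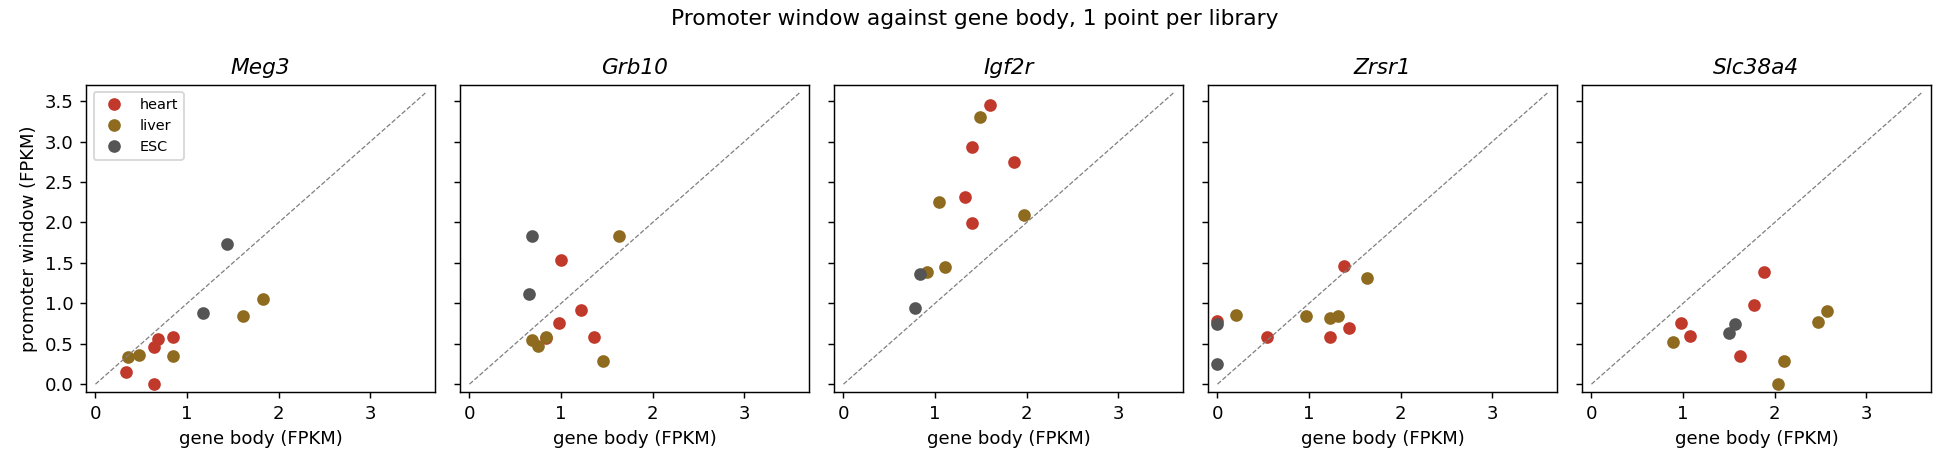
Promoter window against gene body (both axes in FPKM) with 1 point per library in heart (red), liver (brown) and ESC (grey), and the dashed line of equal values. All 12 Igf2r points lie above the line and all 12 Slc38a4 points below it.

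The wider list of imprinted genes, 59 besides the 5 members, had 38 genes tested. For P1 heart against ESC, 3 of 38 were called higher and 2 lower (5.6% and 7.05% of all genes), and for P1 liver against ESC 5 higher and 1 lower (10.4% and 5.05%). The higher ones included Atp10a, a lipid flippase (1.13 ± 0.21 and 0.90 ± 0.21), and Kcnq1, a potassium channel (1.08 ± 0.18 and 0.79 ± 0.18), both maternally expressed. Airn was called in both, as given above, and Smoc1, a paternally expressed matrix protein gene (0.87 ± 0.14), and Gnas, which encodes a G protein subunit (0.51 ± 0.13), in P1 liver. By class, 2 of 22 maternally and 1 of 16 paternally expressed genes were called higher in P1 heart, and 3 of 22 and 2 of 16 in P1 liver. Dlk1 was lower in P1 heart (-1.33 ± 0.32, adjusted p = 0.0415). Peg12 was called lower in both, being listed at 0 in all P1 libraries against 0.394 and 2.32 FPKM in ESC, so that no fold is given. The median over the list was 0.02 in P1 heart and 0.18 in P1 liver, beside -0.13 and 0.10 over all genes. For P1 heart against P1 liver 0 were called higher and 1 lower (0.35% and 1.93% of all genes), namely Smoc1 (-0.83 ± 0.14, adjusted p = 0.0458).

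Between adult tissues 5 of the 38 were higher in W8 heart and 3 lower (9.46% and 21.5% of all genes). Atp10a (1.26 ± 0.21), Plagl1, a zinc finger transcription factor (1.24 ± 0.29), Dlk1, Zim1 (0.71 ± 0.19) and Sgce, a sarcoglycan (0.77 ± 0.15), were higher, and Smoc1 was lower (-1.23 ± 0.14). For W8 liver against P1 liver 0 of the 38 were higher and 8 lower (0.939% and 8.95% of all genes), with a list median of -0.51 beside -0.23 over all genes. The lower ones were Sgce (-1.23 ± 0.15), Dlk1 (-2.12), Atp10a (-1.26 ± 0.21), Zim1 (-1.0 ± 0.19), Ppp1r9a (-0.95 ± 0.19), Airn, Plagl1 (-1.34 ± 0.29) and Sfmbt2 (-0.79 ± 0.18), 3 maternally and 5 paternally expressed. For W8 liver against E14 liver 6 were higher and 2 lower (17.9% and 2.64% of all genes), the lower ones being Dlk1 and Zim1 (-0.91 ± 0.23) and the higher ones including Smoc1 (1.43 ± 0.18), H13 (1.02 ± 0.18), Ddc (1.07 ± 0.24) and Cd81 (1.15 ± 0.27), with a list median of 0.12 beside 0.47 over all genes. In W8 heart against P1 heart, in W8 heart against E14 heart and in the test of the heart-liver difference between ages, 0 of the 38 were called, while 3445, 1628 and 2578 of all genes had an unadjusted p under 0.05. Each gene-body call named here for the list, and for Slc38a1 and Slc38a2, was lost in at least 2 of the 10 fits that left out 1 library.

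**Figure D5:**
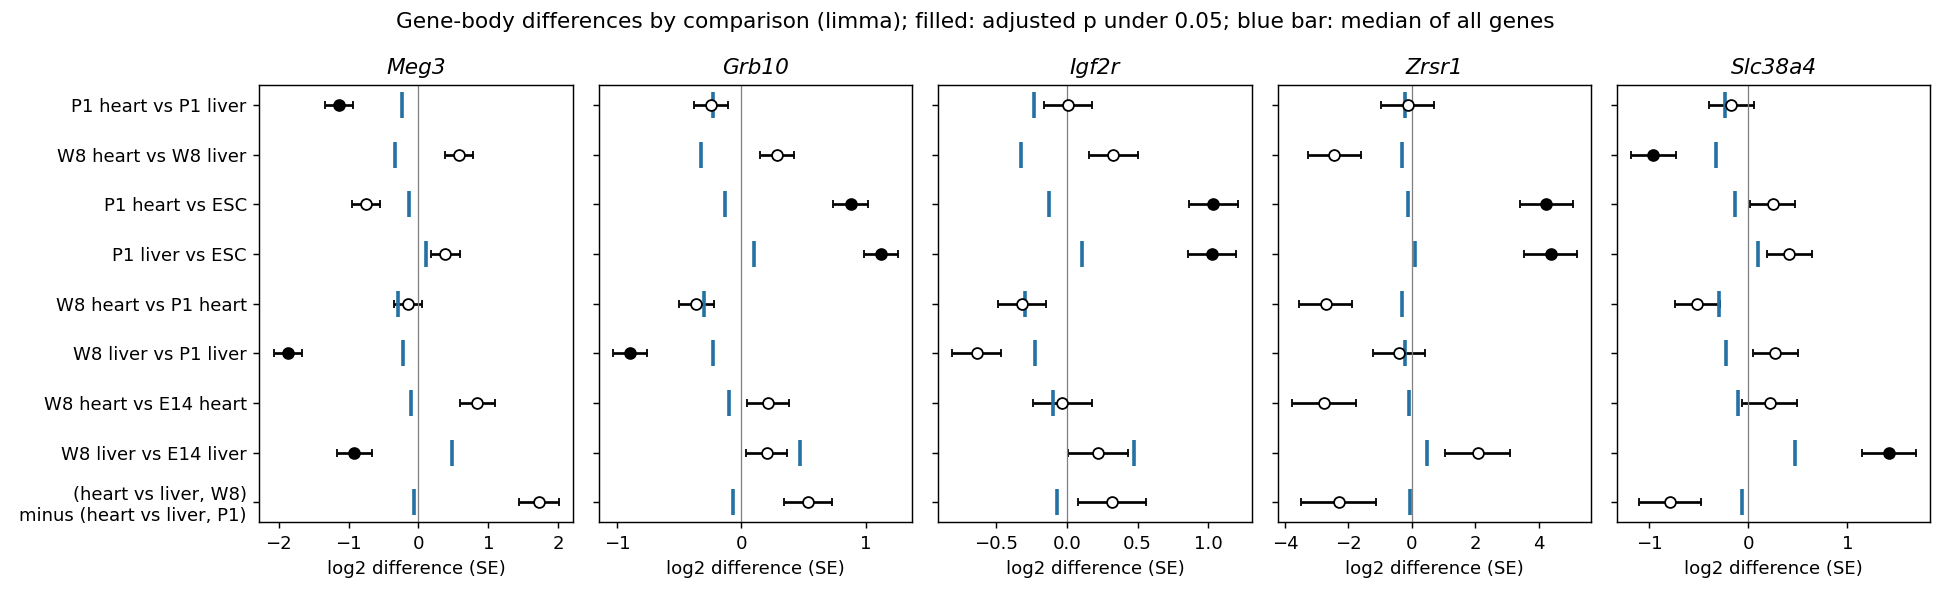
Gene-body log2 differences (x axis, points with SE bars) of the 5 genes in the 9 comparisons (rows), filled where the adjusted p was under 0.05, with a blue bar at the median of all genes. Meg3 stood at -1.87 for W8 liver against P1 liver, which differ in read format as well, far from the median of -0.23. The ESC comparisons of Grb10 and Igf2r stood near 1.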

How the data were processed

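Genomic DNA 5hmC was measured by hMe-Seal in 12 libraries of 7 groups. The deposited values are FPKM per promoter window and gene body, per the file headers; Bowtie2 (version not given in the sources used here) and mm9 are named in the submitters' processing notes. Low FPKM values fell on whole reads (within 0.01 reads for 100% of the low promoter values), which gave the reads behind each value. Chromosome names were taken from RefSeq GRCm38.p6, and promoter sequences from its table. Of 13581 genes, 23 lacked coordinates and 9 had a body of length 0 or less. Genes below the 1st percentile of mean FPKM (0.103 in bodies, 0.115 in promoters) were left out. Tests used limma 3.58.1 (R 4.3.3) on log2(FPKM + 0.0746 for bodies, 0.0723 for promoters), with 7 group means, 5 residual degrees of freedom, a variance trend, two-sided p and Benjamini-Hochberg adjustment over 13413 genes per comparison. E14 heart against E14 liver has 1 library each and no test. The fit was tested on simulated data in which all libraries of a gene had the same spread, so unequal depth was not covered. Alternatives were the pseudocount, no filter, median centring, a replicate block, a fit of the compared groups only and leaving out each replicate, which for the wider list was added after the data were seen. Named genes were the members, their neighbours, up to 6 called genes of the wider imprinted list per comparison (8 were named where 8 were called), and the 3 genes with the highest r. Members and lists were chosen with earlier results of these data known. Figures were drawn with matplotlib 3.10.9 in Python 3.11.15. Some values of genes under this rule are not reported here.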

Additional observations from a re-analysis of the deposited data

Results flagged for a closer look

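For several members the libraries of heart lay on one side of those of liver at 1 age and on the other side at another. These differences between ages were not tested. With only 1 library per tissue at E14, heart could only fall above or below liver there. The share of genes outside the members that switched sides was not worked out, so the switches do not set the members apart. After median centring, the P1 heart minus P1 liver differences of the Grb10 and Slc38a4 bodies changed sign, to 0.0062 and 0.083 (log2). The ratios are mean FPKM in heart over mean FPKM in liver. The Meg3 body ratio was 0.394 at E14 and 1.58 at W8. The Grb10 body ratio was 1.23 at E14 and 0.836 at P1. The Zrsr1 body ratio was 6.82 at E14, from 14 and 4 reads, and 0.245 at W8, from 5 and 24 reads. The Slc38a4 body ratio was 1.20 at E14, 0.886 at P1 and 0.515 at W8. In promoter windows the Zrsr1 ratio was 1.71 at E14, 0.595 at P1 and 0.824 at W8. The Slc38a4 promoter ratio was 1.16 at E14, 8.41 at P1, from 11 and 4 reads, and 0.657 at W8.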

How the results depend on the processing

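Leaving out 1 library at a time moved the counts of called genes, in gene bodies to 0 to 3024 for P1 heart against P1 liver (306 with all), 0 to 6241 for W8 heart against W8 liver (4151), 0 to 4442 for P1 heart against ESC (1696), 0 to 4525 for P1 liver against ESC (2076), 0 to 5145 for W8 heart against P1 heart (2), 0 to 3359 for W8 liver against P1 liver (1327), 0 to 3602 for W8 heart against E14 heart (0), 0 to 5586 for W8 liver against E14 liver (2761) and 0 to 3918 for the change of the heart-liver difference (2). In promoter windows the counts were 0 to 90 (1), 0 to 5309 (1), 1 to 770 (10) and 0 to 2106 (22) in the order P1 heart against P1 liver, W8 heart against W8 liver, P1 heart against ESC and P1 liver against ESC. The highest of these counts came without a W8 heart library.

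Among gene-body differences of members, 576 of 675 kept their direction and side of the threshold, 62 lost a call, 22 gained one and 15 changed sign. With a pseudocount 10 times smaller, P1 heart against P1 liver had 164 calls and W8 heart against E14 heart 1; promoters had 5 for P1 heart against ESC and 6 for P1 liver against ESC. Without a filter, the latter had 44. Median centring gave 146 calls for P1 heart against P1 liver (94 higher, 52 lower, against 47 and 259), 780 for W8 liver against P1 liver (291 and 489, against 126 and 1201) and 1586 for W8 liver against E14 liver (457 and 1129, against 2407 and 354). It turned the split to 2192 higher and 1350 lower for W8 heart against W8 liver (against 1269 and 2882) and to 1518 and 660 for P1 heart against ESC (against 751 and 945). In promoters it gave 3, 5 and 2 calls for W8 heart against W8 liver, P1 heart against ESC and P1 liver against ESC. It turned these uncalled differences: for P1 heart against P1 liver Grb10 0.0062, Zrsr1 0.12, Slc38a4 0.083 and the Grb10 promoter 0.36; for W8 heart against P1 heart Meg3 0.18 and Igf2r 0.0026; for W8 heart against E14 heart Igf2r 0.091; for W8 liver against E14 liver Grb10 -0.31 and Igf2r -0.29. The smaller pseudocount turned the Grb10 promoter to 0.031 for P1 heart against P1 liver. Fitting only the groups compared gave 0 calls for both heart-liver comparisons and W8 heart against P1 heart, 3390 for P1 liver against ESC, 3449 for W8 liver against P1 liver and 8711 for W8 liver against E14 liver; in promoters it gave 0, 0, 0 and 1817.

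Replicate numbers did not pair the samples: deviations of same-numbered libraries correlated between -0.0115 and 0.0433. With a replicate block there were 5 calls for P1 heart against P1 liver, 0 for W8 heart against P1 heart, 1 for the change of the heart-liver difference and 2 in promoters for W8 heart against W8 liver. Under the block, Meg3 had an adjusted p of 0.0653 for P1 heart against P1 liver, 0.0323 for W8 heart against W8 liver and 0.0356 for P1 heart against ESC, no other member's call changed, and Igf2r turned to 0.033 for W8 heart against E14 heart.

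Single libraries also turned uncalled differences. For P1 heart against P1 liver the Igf2r body ran from -0.18 to 0.20, the Zrsr1 body from -0.29 to 0.013, the Grb10 promoter from -1.23 to 1.20 and the Igf2r promoter from -0.097 to 0.54. For W8 heart against P1 heart Meg3 ran from -0.33 to 0.035, and against E14 heart Igf2r from -0.073 to 0.0043 and Slc38a4 from -0.12 to 0.56. For P1 liver against ESC the Meg3 promoter ran from -0.84 to 0.084 and the Grb10 promoter from -2.09 to 0.34, for P1 heart against ESC the Zrsr1 promoter from -0.20 to 1.13, and for W8 heart against W8 liver the Meg3 promoter from -2.55 to 0.56 and the Igf2r promoter from -0.068 to 0.55. The cause of these changes was not tested. Depth limits Zrsr1, at 0 to 14 body reads per library, and every promoter window of W8 heart replicate 2, where 1 read was worth 0.756 or 0.778 FPKM.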
